A study of Mustela putorius furo with 20 samples.

Results

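The 8 genes described here are markers of maturing astrocytes, namely *GFAP*, *AQP4*, *SLC14A1*, *APOE*, *CLU*, *GJA1*, *SPARCL1* and *S100B*. They were listed by name as astrocyte genes, with earlier results of these data known, so the counts below are no independent evidence about astrocyte genes in general. Each matched 1 of the 32057 gene identifiers of the count table. RNA was measured in the outer subventricular zone (oSVZ) of the postnatal ferret cortex, beneath the coronal gyrus (CG) and beneath the suprasylvian sulcus (SSS) of the same animals. The 4 groups were the P15 CG, the P5 CG, the P15 SSS and the P5 SSS, with 5 animals in each, where P15 and P5 are postnatal days 15 and 5. Each library pooled laser-captured oSVZ tissue from many sections of a single region of a single animal, and the labels gave no genotype or treatment to any group. The animal was the replicate, and different animals were used at the 2 ages. Tissue was captured from Nissl-stained sections by anatomical criteria, and no sort for a cell type was described. In such tissue, more astrocytes and more RNA per astrocyte cannot be told apart. The authors describe the layer as running along the outline of the ventricle at P5. At P15 they describe it as spread into the expanded gyri and much sparser in cells. The layer captured therefore differed with age, and the part of this in the age changes was not tested.

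The oSVZ is the germinal layer in which basal radial glia divide. Radial glia first make neurons and later make glia, and astrocytes descend from them. Newborn astrocytes share many transcripts with radial glia, such as *SLC1A3* and *VIM*, and acquire as they mature the filament protein GFAP, water and urea channels, connexins and secreted lipoproteins. Astrocytes then wrap vessels with endfeet, take up glutamate and potassium, and release proteins that act on synapses.

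Libraries held 2488477 to 4277326 reads assigned to genes, and the ranges overlapped between the ages (2488477 to 4095208 at P15 and 2785162 to 4277326 at P5). Levels are CPM, read counts scaled to a common library total, with factors by trimmed mean of M-values (TMM) that keep a few abundant genes from setting the scale. They are levels per library and were not divided by gene length, so levels of different genes were not set against each other. In the deposited table the symbols followed the sorted order of the identifiers, and each identifier was given the symbol at its sorted rank. Under this pairing all 8 genes had reads, between 160 and 214578 over the 20 libraries, while 3 of 8 had none when symbols were read line by line. Of the P15 SSS libraries that of animal 4 stood apart, with 19399 identifiers at 0 against 15276 to 17369 in the other 4. Without it 7 of the 8 genes were again called higher at P15 in the SSS. Markers of radial glia, 8 of 10 listed genes with an identifier, summed to 6346 to 8791 CPM in the P15 CG, 7907 to 10225 CPM in the P5 CG, 5734 to 7936 CPM in the P15 SSS and 5958 to 7107 CPM in the P5 SSS.

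The first question was how the 8 genes differed between P15 and P5 in each region. At P15 *GFAP*, *SLC14A1*, *AQP4*, *APOE*, *SPARCL1* and *GJA1* were higher in both regions, and *CLU* was higher in the SSS. Estimated changes ranged from 39.7-fold for *GFAP* to 2.30-fold for *GJA1* in the CG. *S100B* stayed at a few CPM and was not called in either region. A gene was called when its FDR, the Benjamini-Hochberg adjusted p of edgeR's quasi-likelihood test over 12669 genes, was under 0.05. Of the 8 genes 6 were called higher at P15 in the CG, where 7.39% of all genes tested were, and 7 were called higher in the SSS, where 8.19% were. None was called lower. The median log2 fold change of the 8 was 2.59 in the CG and 2.86 in the SSS, beside -0.01 in either region over all genes tested.

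*GFAP* encodes the intermediate filament that gives mature and reactive astrocytes their cytoskeleton. In the CG it had 219, 159, 215, 151 and 115 CPM at P15 (animals 1 to 5), against 3.84, 8.13, 4.77, 0.583 and 4.13 CPM at P5. In the SSS the P15 libraries had 179, 164, 148, 100.3 and 128 CPM, and those at P5 had 1.08, 3.79, 12.9, 0.363 and 0 CPM. The ages were far apart in both regions, and the P5 libraries were uneven, the SSS of animal 3 standing above the other 4. These P5 levels rest on few reads, 70 over the 5 CG libraries and 69 over the 5 SSS libraries, of which 54 came from that SSS library of animal 3. The edgeR estimate was 5.31 ± 0.55 (log2 fold change ± SE, FDR = 2.2e-08) in the CG, a 39.7-fold difference, and 5.18 ± 0.55 (FDR = 3.56e-08) in the SSS. Without P5 animal 3 the SSS estimate was 6.76, and limma-voom gave 6.58.

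*SLC14A1*, which encodes the urea transporter UT-B, gave the next largest change. Its P15 CG libraries had 93.3, 109, 122, 93.1 and 55.2 CPM, while those of the P5 CG had 0.349, 2.71, 6.45, 1.46 and 4.76 CPM. The SSS gave 122, 102, 156, 50.4 and 54.1 CPM at P15, and 7.92, 3.45, 0.717, 2.91 and 13 CPM at P5. No P5 library reached the lowest P15 library in either region. The log2 fold change was 4.87 ± 0.54 in the CG (29.3-fold, FDR = 7.26e-08) and 4.12 ± 0.51 in the SSS (17.4-fold, FDR = 6.68e-07). The P5 SSS libraries that were high for *GFAP* were not those that were high for *SLC14A1*. The library of animal 3, with 54 reads of *GFAP*, had 3 reads of *SLC14A1*, and the library of animal 5, with no read of *GFAP*, had 43 reads of *SLC14A1*. Without P5 animal 5 the SSS estimate was 4.73, and the call was kept.

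*AQP4* encodes the water channel that is concentrated in astrocyte endfeet around vessels. It had 76.7, 54.5, 93.2, 121 and 78.6 CPM in the P15 CG, against 7.34, 16.9, 8.70, 11.4 and 14 CPM in the P5 CG. In the P15 SSS it had 80.9, 78.1, 104, 144 and 89.2 CPM, against 7.2, 5.52, 12.9, 6.54 and 2.72 CPM in the P5 SSS. The groups did not overlap between ages, and the P5 SSS held the lowest library of all 20. Its log2 fold change was 2.86 ± 0.33 in the CG (FDR = 1.68e-07) and 3.8 ± 0.35 in the SSS (FDR = 2.11e-09).

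**Figure D1:**
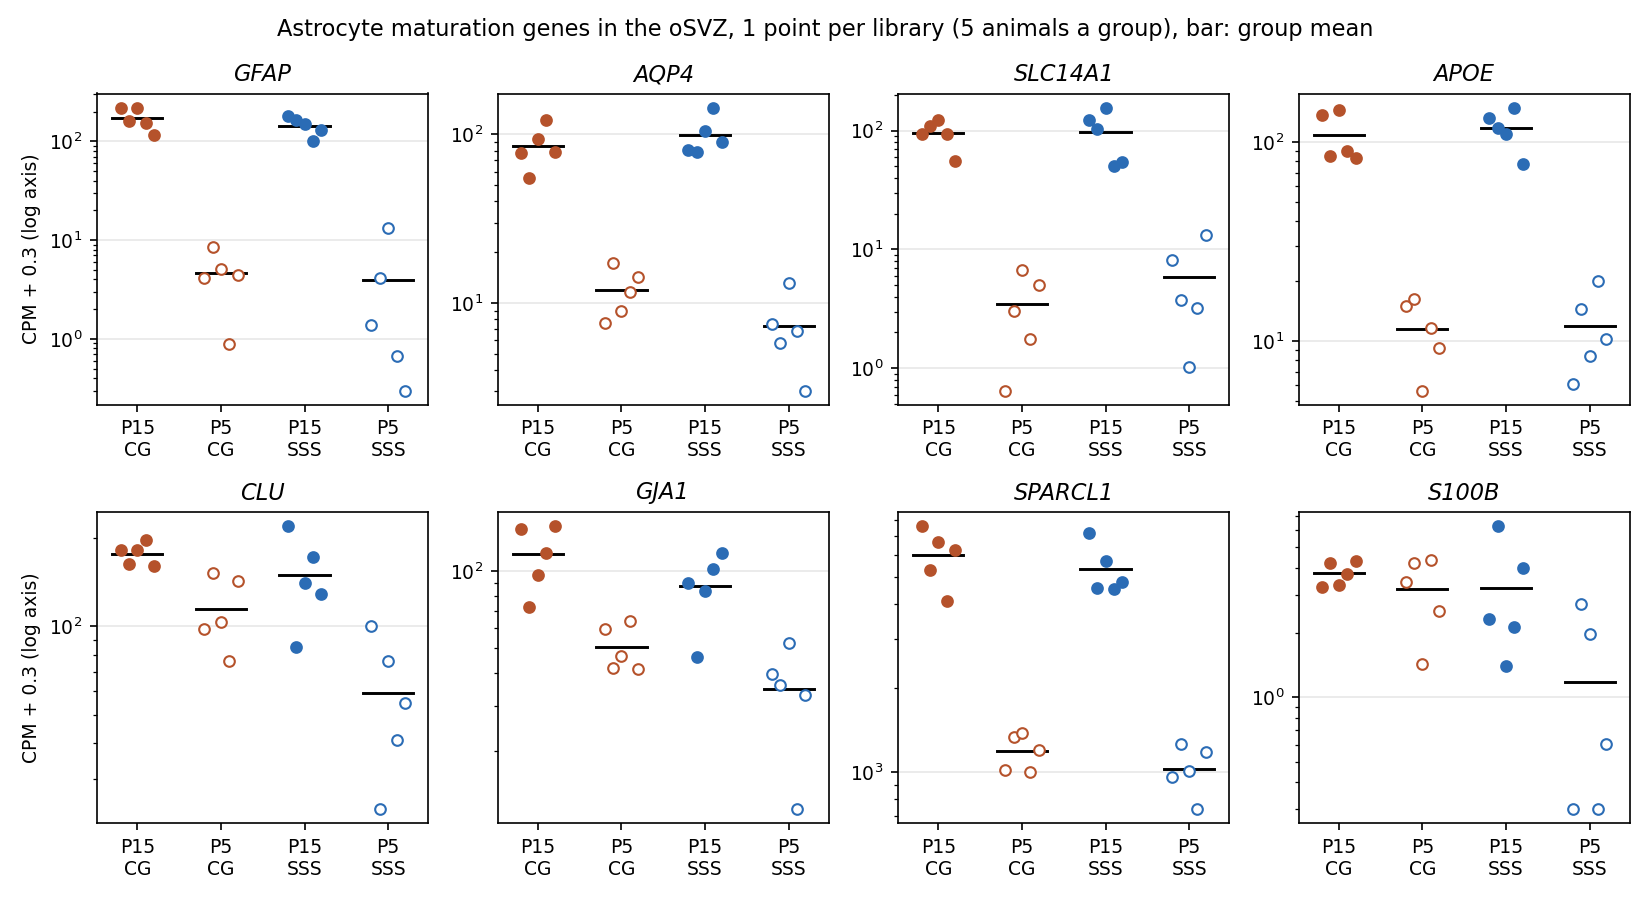
CPM of the 8 genes in each library, plotted with 0.3 added on a log axis, for the P15 CG, P5 CG, P15 SSS and P5 SSS. Each point is a library and each bar a group mean over 5 animals. *GFAP* at P15 (100.3 to 219 CPM) lies above all P5 libraries (0 to 12.9 CPM), while *S100B* stays within 0 to 5.98 CPM in all 4 groups.

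The lipid carriers followed. *APOE* encodes the main lipoprotein that astrocytes secrete, and it was 9.61-fold higher at P15 in the CG and 10.2-fold higher in the SSS. It had 137, 85.3, 144, 90.5 and 83.0 CPM in the P15 CG, against 14.7, 16, 5.33, 11.4 and 8.89 CPM in the P5 CG. The SSS libraries had 131, 118, 110.0, 149 and 77.7 CPM at P15 and 5.76, 14.1, 8.13, 19.6 and 9.98 CPM at P5. Ages were fully apart, and the estimates of both regions lay within each other's SE, 3.26 ± 0.32 in the CG (FDR = 9.1e-09) and 3.35 ± 0.32 in the SSS (FDR = 6.04e-09).

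*CLU* encodes clusterin, a secreted chaperone also known as apolipoprotein J. In the CG it had 182, 163, 183, 197 and 160.4 CPM at P15, against 97.5, 152, 104, 76.1 and 143 CPM at P5. Every P15 CG library was above every P5 CG library, and the estimate, 0.63 ± 0.27 on the log2 scale, missed the threshold (FDR = 0.136). It passed without P5 animal 2 (FDR = 0.0473), the highest P5 CG library, and with the CG libraries fitted alone (FDR = 0.0322), and over all alternatives its FDR ranged between 0.0322 and 0.285. In the SSS *CLU* had 220.1, 84.8, 141, 173 and 129 CPM at P15, against 100.4, 23.5, 76.0, 40.7 and 54.4 CPM at P5. The ages overlapped there by 1 library of each, P15 animal 2 lying under P5 animal 1, and the gene was called (1.34 ± 0.28, FDR = 0.00114). The call in the SSS alone is not shown to be a difference between regions, since the difference of the age changes was not called (FDR = 0.998).

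*GJA1* encodes connexin 43, the gap junction protein that couples astrocytes and is already present in radial glia. It had 146, 72.2, 96.3, 117 and 149 CPM in the P15 CG, against 59.4, 41.9, 46.3, 63.5 and 41.3 CPM in the P5 CG. In the SSS it had 89.5, 45.9, 83.0, 101 and 117 CPM at P15, against 39.6, 35.9, 52.1, 11.6 and 32.7 CPM at P5. The CG ages did not overlap, while in the SSS P15 animal 2 lay under P5 animal 3. The log2 fold changes were 1.20 ± 0.29 in the CG (FDR = 0.00503) and 1.34 ± 0.30 in the SSS (FDR = 0.00199).

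*SPARCL1* encodes hevin, a secreted matricellular protein that promotes the formation of excitatory synapses. It had 7577, 5284, 6643, 4095 and 6204 CPM in the P15 CG, against 1022, 1334, 1384, 1002 and 1200 CPM in the P5 CG. The SSS had 7153, 4572, 5708, 4503 and 4781 CPM at P15 and 963, 1263, 1008, 738 and 1180 CPM at P5. The lowest P15 library had nearly 3 times the CPM of the highest P5 library. With the most reads of the 8 genes it also had the smallest SE, 2.33 ± 0.19 in the CG (FDR = 2.51e-10) and 2.37 ± 0.19 in the SSS (FDR = 1.29e-10), and by p it ranked 5 and 6 among all genes tested.

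*S100B* encodes a calcium-binding protein of astrocytes and of some oligodendrocyte lineage cells. It had 9 to 13 reads per library in the P15 CG, 4 to 14 in the P5 CG, 4 to 18 in the P15 SSS and 0 to 7 in the P5 SSS, where the libraries of animals 1 and 4 had none. Levels averaged 3.48 ± 0.488 CPM in the P15 CG and 2.90 ± 1.24 CPM in the P5 CG (SD, n = 5 each). In the SSS they averaged 2.93 ± 1.96 CPM at P15 and 0.878 ± 1.10 CPM at P5. Neither change was called, and the 95% intervals of the log2 fold changes, -1.48 to 2.01 in the CG and -0.18 to 3.51 in the SSS, were wide enough to hold no difference and a change as large as that of several other members.

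**Figure D2:**
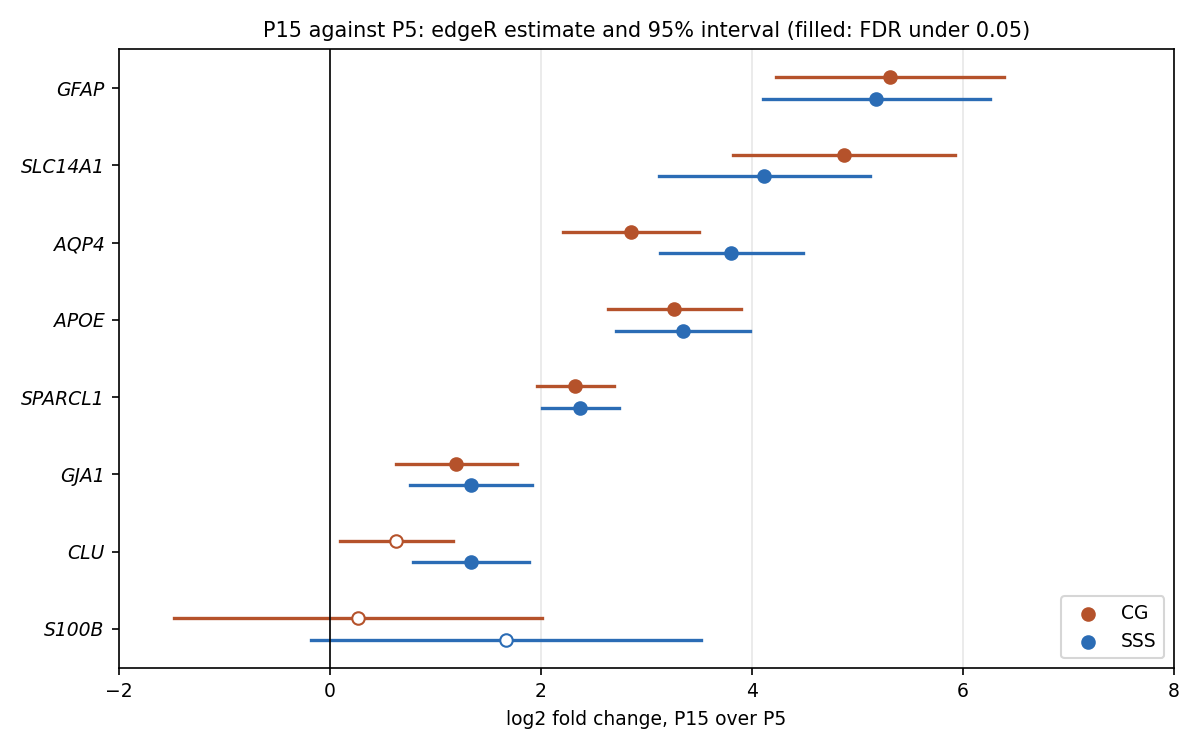
Log2 fold change of P15 over P5 for each gene (points, edgeR estimates) with its 95% interval (lines), in the CG and the SSS. Filled points have an FDR under 0.05. In the CG the estimates reach 5.31 for *GFAP* and 0.26 for *S100B*, whose intervals include 0 in both regions.

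The sizes of change fell into a broad order. The 95% intervals of *GFAP* (4.23 to 6.39) and *SLC14A1* (3.82 to 5.92) in the CG lay above those of *SPARCL1* (1.96 to 2.69), *GJA1* (0.63 to 1.77) and *CLU* (0.09 to 1.17). Those of *AQP4* (2.21 to 3.50) and *APOE* (2.63 to 3.89) overlapped each other, and that of *APOE* overlapped that of *SLC14A1*. In the SSS *GFAP* (4.10 to 6.26) and *SLC14A1* (3.12 to 5.12) also lay above *SPARCL1* (2.01 to 2.74), *GJA1* (0.76 to 1.92) and *CLU* (0.79 to 1.89). Both overlapped *AQP4* there (3.12 to 4.48), and *SLC14A1* overlapped *APOE* (2.72 to 3.98). Differences between genes were not tested. Over 23 alternative settings of each comparison, the 6 genes called in both regions were called in all, with FDR values up to 0.0213.

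Separation of the libraries was also counted without a model. The lowest P15 library was above the highest P5 library for 7 of the 8 genes in the CG, where 7.32% of all genes tested did so, and for 5 of the 8 in the SSS, where 5.52% did. Exact permutation tests on log2 CPM (2-sided, 16 tests) gave p = 0.00794, the smallest p that 5 animals against 5 allow, for the same 7 and 5 genes. In the SSS *CLU* and *GJA1* had an exact p of 0.0159 each, and *S100B* had 0.0635.

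The second question was whether the genes differed between the CG and the SSS of an animal. None of the 8 was called at P5, where 0.0395% of all genes tested were, or at P15, where 0.0158% were. An unadjusted p under 0.05 was found for 4 of the 8 at P5, against 1017 of all genes tested, and for 0 of the 8 at P15, against 471. DESeq2 called 1 of the 8 at P5 (*CLU*) and 0 at P15, and limma-voom called 0 at either age. The 5 genes called at P5 were *FABP7*, *CBLB*, *GPR17*, *CDK18* and *PIK3R1*, and the 2 at P15 were *SST* and *EOMES*, and they are named here because the counts are small. At P5 the group means of *GFAP*, *AQP4*, *SPARCL1*, *CLU*, *GJA1* and *S100B* were higher in the CG, and those of *APOE* and *SLC14A1* were higher in the SSS. For each of the first 6 the CG was above the SSS in 4 or 5 of 5 animals, a count that 21.4% of all genes tested reached. At P15 4 of the 8 genes did so, where 20.8% of all genes did. With 5 animals the smallest exact p within animals is 0.0625, so these pairs alone could not pass 0.05.

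*CLU* had the lowest p of the 8 between the regions at P5, averaging 115 ± 32.2 CPM in the CG and 59.0 ± 30.1 CPM in the SSS (SD, n = 5 each). In 4 animals the CG had more, with animal 1 at 97.5 CPM in the CG and 100.4 CPM in the SSS, and the widest pair was that of animal 2 (152 CPM in the CG and 23.5 CPM in the SSS). The log2 difference was 1.04 ± 0.26 (FDR = 0.133). DESeq2 called it (adjusted p = 0.0202), as did edgeR without a filter on low counts (FDR = 0.000145). No setting that left out an animal did, and over all alternatives the FDR lay between 0.000145 and 0.853. At P15 *CLU* averaged 177 ± 15.1 CPM in the CG and 149 ± 50.5 CPM in the SSS, a log2 difference of 0.31 ± 0.24 (FDR = 1).

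The other 7 genes had an FDR of 0.512 to 0.99 between regions at P5. In 5 of 5 animals *SPARCL1* had more CPM in the CG (1188 ± 175 CPM against 1030 ± 204 CPM in the SSS), with a log2 difference of 0.22 ± 0.09 (FDR = 0.512). *AQP4* (0.78 ± 0.33) and *GJA1* (0.62 ± 0.27) had an FDR of 0.542 each. For *GJA1* the pair of animal 4 was the widest, with 63.5 CPM in the CG and 11.6 CPM in the SSS. At P5 the SSS library of each animal had more tested genes without a read than its CG library. Such genes numbered 659, 503, 244, 825 and 421 in the SSS (animals 1 to 5). In the CG they numbered 586, 324, 218, 531 and 307. The part of this in the region differences was not tested. Levels of radial glia genes also differed between the regions at P5, and their part in the differences of the 8 genes was not tested. The summed radial glia markers did not overlap between the regions at P5 (7907 to 10225 CPM in the CG and 5958 to 7107 CPM in the SSS). How often sums of other genes do so was not counted. Of these markers 7 of 8 had a positive log2 difference, beside 51.5% of all genes tested. *FABP7*, which is part of that sum, was called (0.59 ± 0.08, FDR = 0.00181). *VIM* had a log2 difference of 0.50 ± 0.12 (FDR = 0.133) and *SLC1A3* one of 0.33 ± 0.11 (FDR = 0.368).

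At P15 all 8 genes had an FDR of 1. In 5 of 5 animals *GJA1* had more CPM in the CG (116 ± 32.6 CPM against 87.3 ± 26.5 CPM in the SSS), and *AQP4* was higher in the SSS in 5 of 5 (84.8 ± 24.4 CPM in the CG and 99.2 ± 26.9 CPM in the SSS). Both had an exact p of 0.0625, the smallest possible. The difference of the age change between the CG and the SSS was called for 0% of all genes tested, and 488 had an unadjusted p under 0.05. Of the 8 genes, *AQP4* (-1.02 ± 0.43) and *CLU* (-0.73 ± 0.35) had such a p, with an FDR of 0.998 each. DESeq2 called 1 gene in this comparison, which was none of the 8, and limma-voom called 0.

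**Figure D3:**
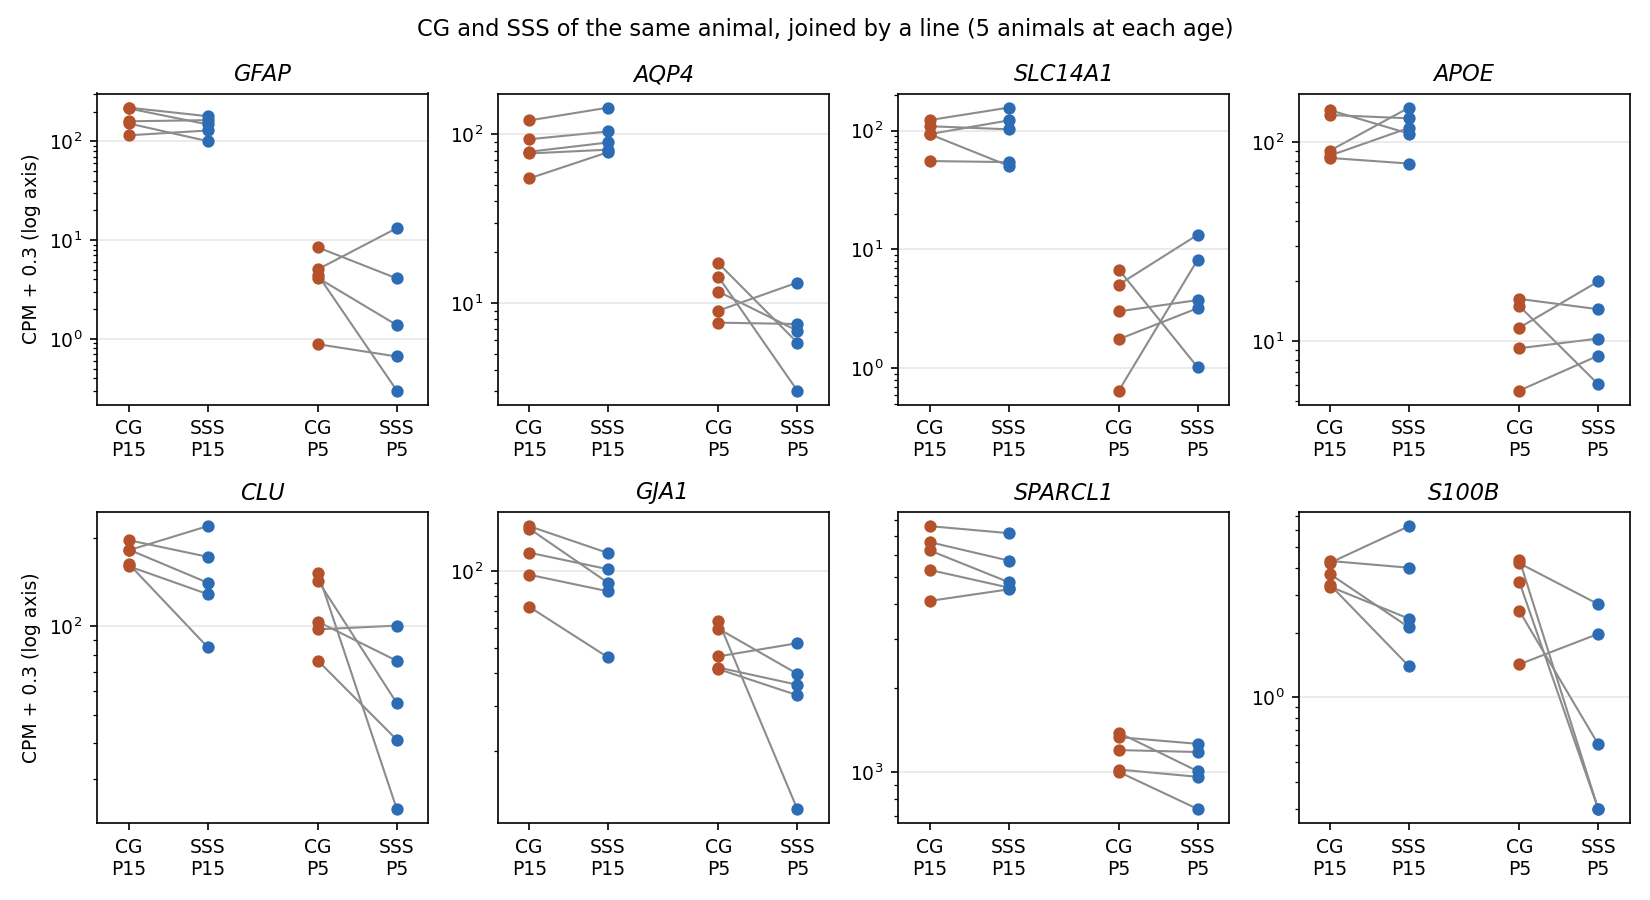
CPM of the 8 genes (0.3 added, log axis) in the CG and the SSS, with a line joining the 2 libraries of an animal, at P15 (left of each panel) and P5 (right). The CG point is the higher of the pair in 4 of 5 animals for *CLU* at P5 and in 5 of 5 for *SPARCL1* at P5 and *GJA1* at P15.

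Ordered by mean level, both P15 groups stood above both P5 groups for all 8 genes. For *S100B* this rests on means of 2.93 CPM in the P15 SSS and 2.90 CPM in the P5 CG, whose medians (2.02 and 3.14 CPM) and summed reads (44 and 47) have the other order. The order was P15 CG, P15 SSS, P5 CG, P5 SSS for *GFAP*, *SPARCL1*, *CLU*, *GJA1* and *S100B*. For *APOE* and *SLC14A1* it was P15 SSS, P15 CG, P5 SSS, P5 CG, and for *AQP4* it was P15 SSS, P15 CG, P5 CG, P5 SSS. Apart from *S100B*, whose P15 SSS and P5 CG cannot be ordered, the 2 regions of an age stood next to each other in these orders, and none of those pairs was called. At P5 the unadjusted 95% intervals of the log2 difference of the CG from the SSS lay above 0 for *CLU* (0.54 to 1.55), *AQP4* (0.13 to 1.43), *GJA1* (0.10 to 1.14) and *SPARCL1* (0.05 to 0.38). Those are the 4 genes counted above with an unadjusted p under 0.05, so the intervals are no further evidence. Their FDR values were 0.133 to 0.542.

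The last question was whether the genes changed more than transcripts that radial glia and young astrocytes share. Ratios of reads were taken within a library, with 0.5 reads added, to *SLC1A3*, the glutamate transporter GLAST, and to *VIM*, the filament protein vimentin. *SLC1A3* was itself higher at P15, by 0.60 ± 0.16 in the CG (1473 ± 131 CPM at P15 and 975 ± 72.0 CPM at P5, FDR = 0.0138) and by 0.70 ± 0.17 in the SSS (FDR = 0.00339). *VIM* was not called, with log2 fold changes of -0.40 ± 0.19 in the CG (FDR = 0.164) and -0.37 ± 0.19 in the SSS (FDR = 0.194).

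Relative to *SLC1A3*, *GFAP*, *SLC14A1*, *AQP4*, *APOE* and *SPARCL1* were higher at P15 in both regions with no overlap of libraries (exact p = 0.00794 each, of 32 ratio tests, not adjusted). Of all other tested genes, 2.57% were higher without overlap by this ratio in the CG and 1.35% in the SSS. The log2 ratio of *GFAP* to *SLC1A3* averaged -3.13 ± 0.43 in the P15 CG and -8.13 ± 1.37 in the P5 CG (SD, n = 5 each), a 31.8-fold difference. That of *SPARCL1* averaged 1.99 ± 0.36 in the P15 CG and 0.28 ± 0.26 in the P5 CG, a 3.28-fold difference. For *CLU* in the CG the log2 ratio averaged -3.05 ± 0.15 at P15 and -3.13 ± 0.48 at P5, a difference of 0.08 (exact p = 0.738). In the SSS the ratio of *CLU* differed by 0.70 (exact p = 0.0714). *GJA1* relative to *SLC1A3* was 1.49-fold higher at P15 in the CG (exact p = 0.0397) and 1.61-fold higher in the SSS (exact p = 0.127). Relative to *VIM*, *CLU* and *GJA1* were also higher at P15 with no overlap in either region (exact p = 0.00794 each), as were 11.7% of all genes in the CG and 7.44% in the SSS. *CLU* was 2.12-fold higher in the CG and 3.45-fold in the SSS by this ratio, and *GJA1* was 3.43-fold higher in the SSS. Relative to *SLC1A3*, 6 of the 8 genes in the CG and 5 in the SSS were higher with an exact p under 0.05, beside 6.08% and 3.84% of all genes. Relative to *VIM*, 7 in the CG and 8 in the SSS were, beside 25.6% and 17.1% of all genes, so that a ratio to *VIM* was passed by many genes.

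**Figure D4:**
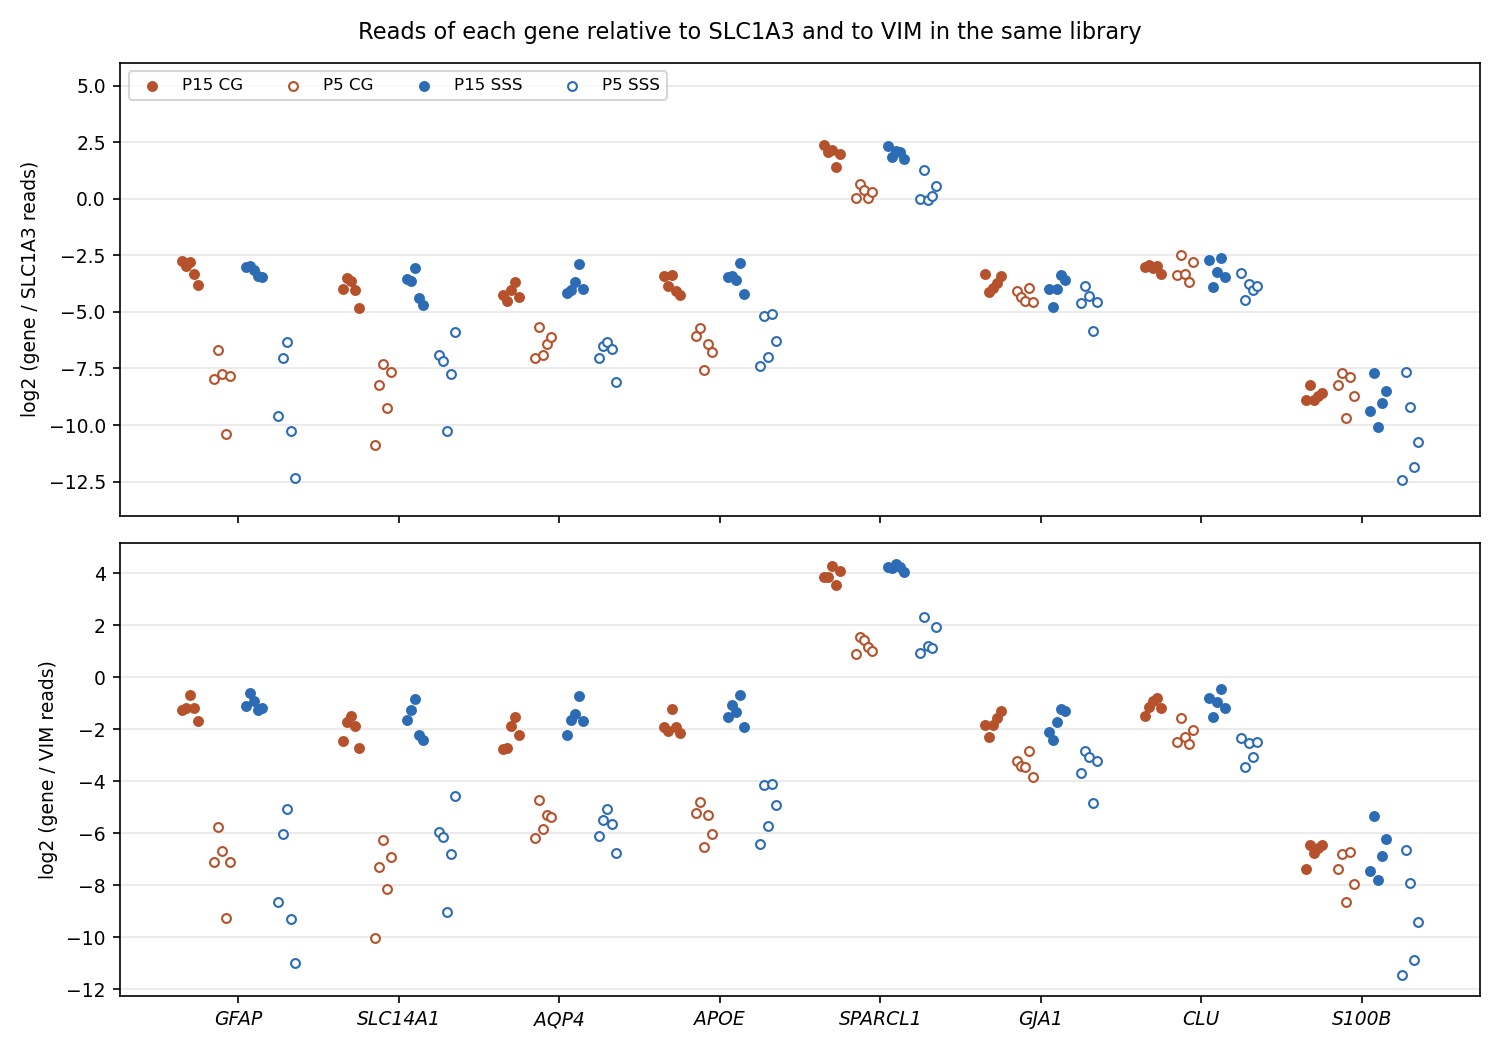
Log2 ratio of the reads of each gene to those of *SLC1A3* (top) and *VIM* (bottom) in the same library, for the P15 CG, P5 CG, P15 SSS and P5 SSS (5 libraries each). The ages separate for the 5 genes on the left with either denominator, while the *CLU* to *SLC1A3* ratios of the CG overlap (means -3.05 at P15 and -3.13 at P5).

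Correlations among the 8 genes were computed with and without the group means. Over the 20 libraries, the 28 pairs of members had a median Pearson r of 0.74 in log2 CPM (0.25 to 0.95), the highest being *GFAP* with *AQP4*. After the mean of each group was taken out, the median was 0.11 (-0.50 to 0.48) and 17 of 28 pairs were positive. *GFAP* with *AQP4* was again the highest (0.48), *SPARCL1* with *SLC14A1* had 0.39, and *GFAP* with *SLC14A1* had -0.29. These are descriptions over 20 libraries that share animals in pairs and groups of age.

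Among all tested genes with a symbol, those with the highest Pearson r to *GFAP* over the 20 libraries were *PMP2* (0.97), *CD44* (0.96) and *PDGFRA* (0.96), the last a marker of oligodendrocyte precursors. Group means were not taken out here, so each r in this paragraph includes the difference between the ages. *AQP4* was closest to *CSPG5* (0.96), *PMP2* (0.96) and *GFAP* (0.95), and *SLC14A1* to *SLC7A2* (0.96), *C1QTNF3* (0.96) and *ASB5* (0.95). *SPARCL1* was closest to *NT5E* (0.98), *POSTN* (0.98) and *C1QTNF3* (0.97), and *APOE* to *PHYHIPL* (0.98), *OGN* (0.97) and *ATP6V0A2* (0.96). Among the genes closest to *CLU* were *SLC1A3* (0.85) and *ALDH1L1* (0.85), which encode a glutamate transporter and a folate enzyme. *GJA1* was closest to *JAM2* (0.89), *DDAH1* (0.88) and *TLR3* (0.86). *S100B*, with the fewest reads, had the weakest matches, *NAAA* (0.81), *IQCE* (0.77) and *ODAD4* (0.76).

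Genes that work with the members were described from 8 lists of 72 genes, of which 63 had an identifier and 57 passed the filter on low counts. In the CG 21 of the 57 were called higher at P15 and 1 lower, and in the SSS 23 were called higher and 2 lower, with 19 called higher in both regions. Of all genes tested, 7.39% were called higher in the CG and 8.19% in the SSS. Called lower were 725 of 12669 genes in the CG and 819 in the SSS. None of the 57 was called between the CG and the SSS at either age, or in the difference of the age changes. The median log2 fold change of the 57 was 0.65 in the CG and 0.86 in the SSS, beside 2.59 and 2.86 for the 8 genes.

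Of 8 tested partners of *AQP4* at the endfoot, 6 were called higher at P15 in each region. They belong to the dystrophin-associated complex, which anchors the channel to the vessel wall, or to the junctions between endfeet. *DTNA*, which encodes alpha-dystrobrevin, had 246 ± 35.6 CPM in the P15 CG and 37.8 ± 17 CPM in the P5 CG (2.7 ± 0.25, FDR = 3.09e-09), and its log2 fold change in the SSS was 2.08 ± 0.24 (FDR = 2.36e-07). *DAG1*, which encodes dystroglycan, was higher by 1.04 ± 0.23 in the CG and 1.33 ± 0.23 in the SSS. *DMD*, *UTRN* and the adhesion gene *HEPACAM* were also called in both regions, *SGCB* was called in the CG and *MLC1* in the SSS.

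Of 15 tested genes of glutamate, ion and metabolite handling, 7 were called higher at P15 in the CG, 9 were in the SSS, and no gene was called lower. The log2 fold change was above 0 for 13 of the 15 in the CG and 14 in the SSS. Below 0, and not called, were *SLC7A10* (-0.75 ± 0.35) and *SLC38A3* (-0.08 ± 0.30) in the CG. In the SSS it was *GLUL* (-0.27 ± 0.28), which had 0.20 ± 0.28 in the CG. *ALDH1L1*, the folate enzyme used as a general astrocyte marker, had 43.4 ± 6.44 CPM in the P15 CG and 8.03 ± 3.42 CPM in the P5 CG, with log2 fold changes of 2.43 ± 0.43 in the CG and 2.53 ± 0.44 in the SSS. *SLC1A2*, the glutamate transporter of mature astrocytes, was higher by 1.08 ± 0.29 in the CG and 1.15 ± 0.30 in the SSS. *ALDOC*, *ATP1B2*, *SLC4A4* and *SLC15A2* were called in both regions as well. *SLC39A12*, a zinc transporter gene, had 87 reads in the P15 SSS and none in the P5 SSS, which makes it at least 28.2-fold higher there, taking 3 reads over the P5 group as the limit. In the CG it had 90 reads at P15 and 6 at P5 (FDR = 0.0537).

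**Figure D5:**
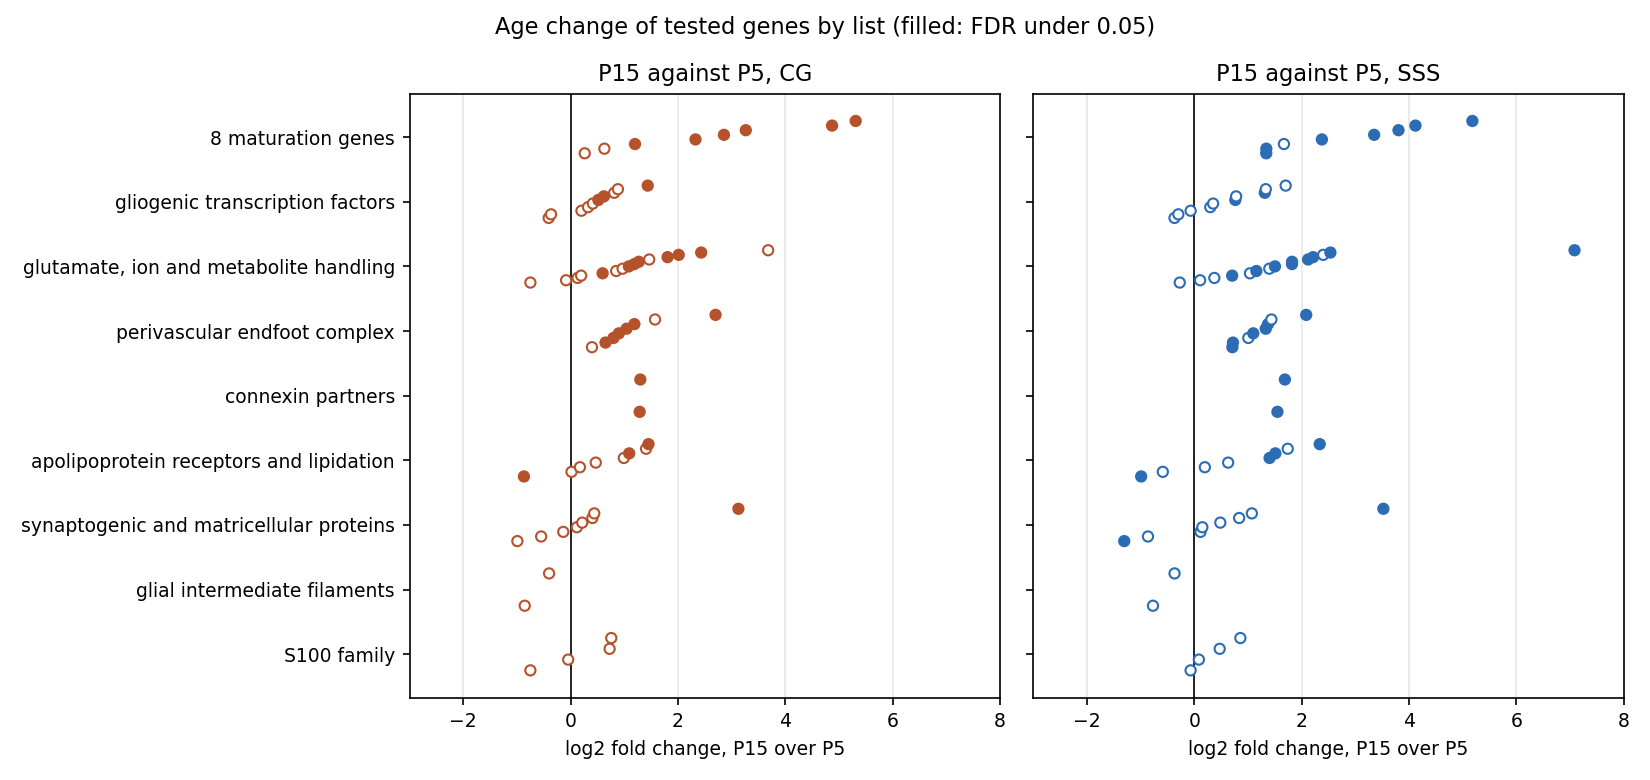
Log2 fold change of P15 over P5 for the 8 genes and for each tested gene of 8 lists of astrocyte partners, in the CG (left) and the SSS (right). Filled points have an FDR under 0.05. In the CG the filled points of the endfoot and transport lists lie between 0.6 (*SLC1A3*) and 2.7 (*DTNA*), below *GFAP* at 5.31. The point at 7.08 in the SSS is *SLC39A12*, whose P5 SSS libraries had no read, so that its position depends on the prior count.

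Both tested partners of *GJA1* were called higher at P15 in both regions. *GJB6*, which encodes connexin 30, a later astrocyte connexin, was higher by 1.29 ± 0.40 in the CG (FDR = 0.0309) and 1.68 ± 0.41 in the SSS (FDR = 0.00485). *TJP1*, which encodes a scaffold bound by connexin 43, was higher by 1.30 ± 0.22 in the CG (FDR = 7.64e-05) and 1.55 ± 0.22 in the SSS (FDR = 6.37e-06).

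Of 8 tested apolipoprotein receptors and lipidation genes, 2 were called higher and 1 lower in the CG, and 3 higher and 1 lower in the SSS. The receptor gene *LRP1* was higher at P15 by 1.45 ± 0.23 in the CG and by 1.4 ± 0.23 in the SSS. *VLDLR* was higher by 1.09 ± 0.32 in the CG and by 1.51 ± 0.33 in the SSS. *LRP8*, an APOE and reelin receptor of neurons, was lower at P15, with 73.2 ± 16.2 CPM in the P15 CG and 134 ± 17.4 CPM in the P5 CG (-0.87 ± 0.22, FDR = 0.00676), and -0.99 ± 0.22 in the SSS (FDR = 0.00202). *LPL*, which encodes lipoprotein lipase, was called higher in the SSS (FDR = 0.0434).

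Of 8 tested secreted and adhesion genes related to *SPARCL1*, *MERTK*, which encodes a phagocytic receptor that astrocytes share with microglia, was called higher in both regions (3.13 ± 0.78 in the CG and 3.52 ± 0.80 in the SSS). *CADM1*, a synaptic adhesion gene, was called lower in the SSS (-1.31 ± 0.25, FDR = 0.000309) and had -0.55 ± 0.24 in the CG (FDR = 0.139). The list's median log2 fold change was 0.17 in the CG and 0.31 in the SSS.

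The other glial filament genes did not share the calls of *GFAP*. Besides *VIM*, *NES*, which encodes the progenitor filament nestin, was not called, with 96.6 ± 39 CPM in the P15 CG and 175 ± 38.7 CPM in the P5 CG (-0.86 ± 0.30, FDR = 0.0534) and -0.77 ± 0.30 in the SSS (FDR = 0.0795). Within a library, *GFAP* relative to *VIM* was 63.9-fold higher at P15 in the CG (exact p = 0.00794), with a log2 ratio of -1.19 ± 0.36 at P15 and -7.18 ± 1.29 at P5. None of 4 tested genes of the S100 family was called. The lowest p-values there were those of *S100A1* (0.76 ± 0.32 in the CG and 0.86 ± 0.32 in the SSS, where FDR = 0.0746) and, in the CG, *S100A16* (-0.75 ± 0.33, FDR = 0.136).

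Of 10 tested transcription factors of gliogenesis, the CG had 3 called higher at P15, the SSS had 2, and none was called lower. Log2 fold changes below 0 were found for 2 of the 10 in the CG, *NFIB* (-0.41 ± 0.20) and *NFIX* (-0.37 ± 0.38). The SSS had 3 below 0, namely *NFIB* (-0.37 ± 0.20), *NFIX* (-0.07 ± 0.38) and *HES1* (-0.30 ± 0.54). *STAT3*, which acts downstream of cytokines on the GFAP promoter, had 93.1 ± 25 CPM in the P15 CG and 34.4 ± 6.58 CPM in the P5 CG (1.44 ± 0.27, FDR = 0.000382), and it was higher by 1.31 ± 0.27 in the SSS (FDR = 0.00101). *NFIA*, a factor that starts gliogenesis, was higher by 0.62 ± 0.19 in the CG and 0.76 ± 0.19 in the SSS. *ZBTB20* was called in the CG (0.52 ± 0.17, FDR = 0.0362) and not in the SSS (0.35 ± 0.17, FDR = 0.171).

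Markers of other cell types moved with age as well, and their part in the results above was not tested. Beside the counts of these markers, 7.39% of all genes tested were called higher at P15 in the CG and 8.19% in the SSS. Of 8 tested oligodendrocyte lineage markers, 7 were called higher at P15 in each region, and the summed level of the list ranged over 977 to 4336 CPM in the P15 CG and 262 to 357 CPM in the P5 CG. In the SSS it ranged over 1088 to 3994 CPM at P15 and 234 to 512 CPM at P5. *MAG*, a myelin gene, had no read in any P5 library, while *PDGFRA* had reads at both ages (1.68 ± 0.20 in each region). Microglial markers were called higher for 5 of 8 in the CG and 6 of 8 in the SSS, with sums of 238 to 572 CPM in the P15 CG, 59.8 to 127 CPM in the P5 CG, 239.6 to 402 CPM in the P15 SSS and 60.1 to 118 CPM in the P5 SSS. *APOE* and *SPARCL1* are also transcribed outside astrocytes, *APOE* by microglia and *SPARCL1* by vessels and neurons.

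Of 9 tested neuronal markers, 6 were called lower at P15 in each region and none higher. Among all 12669 genes tested, 725 were called lower in the CG and 819 in the SSS. The largest difference of the neuronal markers was that of *NEUROD6* (-3.92 ± 0.24 in the CG and -3.87 ± 0.24 in the SSS). The sums of the neuronal markers were 1118 to 1476 CPM in the P15 CG, 2019 to 3004 CPM in the P5 CG, 1406 to 1548 CPM in the P15 SSS and 2259 to 3319 CPM in the P5 SSS. Of 8 tested vessel markers *FLT1* and *KDR* were called higher in both regions, and the list summed to 439.6 to 498 CPM in the P15 CG, 184 to 359.7 CPM in the P5 CG, 348 to 524 CPM in the P15 SSS and 140.0 to 366 CPM in the P5 SSS. Of 5 tested meningeal and fibroblast markers, *OGN* was called higher in both regions and *COL1A1* in the SSS. Their log2 fold changes ran from -1.36 to 3.26 in the CG, with a median of 0.64 and 1 of 5 below 0. In the SSS they ran from -0.96 to 2.90, with a median of 1.06 and 1 of 5 below 0. The whole list summed to 269 to 463 CPM in the P15 CG and 76.5 to 109 CPM in the P5 CG. In the SSS these sums were 267 to 431 CPM at P15 and 73.4 to 92.2 CPM at P5.

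Ependymal and choroid plexus markers stayed low, at 0 to 32 CPM in sum over all libraries, and 1 of 2 tested was called, *FOXJ1* in the SSS (FDR = 0.0453). Of the choroid plexus genes, *TTR* had no read in the P15 SSS and had reads in each of the other groups. *CLIC6* had reads in the P15 CG only. Erythroid markers, 3 tested, were not called, and summed to 21.8 to 87.6 CPM over all libraries. Radial glia markers did not move one way. In the CG *PTPRZ1* and *LIFR* were called higher at P15 and *FABP7* lower, and in the SSS *GLI3* was also called higher and *MOXD1* lower.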

How the data were processed

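RNA of laser-captured oSVZ was amplified by SPIA, which adds no molecular identifiers, and sequenced in pairs. The authors trimmed reads with Trimmomatic 0.38, aligned them to the ferret genome with STAR 2.7.9a and summed them per gene with featureCounts. The deposited values are raw counts, 1 column per library, with no normalisation (2488477 to 4277326 per library). No source used here says whether reads were counted by strand, so overlapping antisense genes cannot be told apart.

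Counts were tested with edgeR 4.0.16 (TMM, quasi-likelihood of the older kind, R 4.3.3) over 12669 genes kept by filterByExpr (minimum count 10, total 15). Ages were compared in a design of the 4 groups. CG and SSS were compared with the animal as a block, since the library names give both libraries of an animal the same animal name. With group means taken out, such pairs of libraries had a median r of 0.141 (0.046 to 0.246). Pairs of different animals had -0.0417 (-0.504 to 0.142). The latter include pairs within a group, whose r is lowered by taking out their shared mean, so the medians are not like for like. Fold changes used a prior count of 0.125, log2 CPM one of 2, and intervals are the estimate with its SE at 95%. limma 3.58.1 and DESeq2 1.42.0 served as alternatives, and Python 3.11.15 made the exact tests and figures. Tests were checked on simulated data.

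Named genes are the 8 members, all called genes of the partner lists with up to 2 others where none was called, up to 3 of each marker list, and the 3 genes closest to each member. Exceptions are further marker genes, some partner genes that were not called, and the genes called between regions, named after their values were seen. Some genes that the rule covers are not reported here. The members and lists were chosen with earlier results of these data known.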

Additional observations from a re-analysis of the deposited data

How the results depend on the processing

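The age results of the 8 genes kept their direction under every alternative tried, and their calls changed only for *CLU* in the CG. Counts of all genes called by age stayed within 1.5 times the main counts, at 1133 to 1955 in the CG and 1270 to 1840 in the SSS with replicates left out. With the number shared between ages as a replicate block, 1890 and 2008 genes were called, and 6 and 7 of the 8. These numbers do not pair animals of different ages (median r 0.0235). *GFAP* in the SSS ranged over 4.87 to 6.76.

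Between the CG and the SSS at P5, 5 genes were called. Alternatives gave 106 with DESeq2, 54 with limma-voom, 27 with the newer quasi-likelihood method, 27 with RNA integrity as a covariate, 69 without a filter, 14 with the groups compared fitted alone, 3 with library size in place of TMM and 0 with no replicate block for the animal. Leaving out replicates gave 1 to 51, with 49 without P15 animal 4 and 51 without its SSS library alone. Of the 8 genes, 1 (*CLU*) was called with DESeq2 and without a filter. At P15, where 2 were called, the first 6 of these gave 11, 9, 4, 1, 18 and 0, with 0 again with no replicate block, and 0 to 2 with replicates left out. The difference of the age changes, 0 called, gave 1 with DESeq2 and 5 without a filter. The causes of these moves were not tested.

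No value of the 8 genes that changed sign was called. For *SLC14A1* between regions at P15 these were -0.073 with limma-voom, -0.038 with the newer method and -0.037 with no replicate block, and -0.16 to 0.15 with replicates left out. With replicates left out, *APOE* between regions ranged over -0.34 to 0.18 at P5 and -0.27 to 0.022 at P15. For the difference of the age changes *GFAP* had 0.13 with the newer method and 0.13 with no replicate block, and -1.54 to 0.13 with replicates left out, *SPARCL1* -0.12 to 0.0046, *APOE* -0.30 to 0.21 and *GJA1* -0.42 to 0.18.

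Depth limits *S100B*, with 0 to 18 reads per library, and *GFAP* and *SLC14A1* at P5. Promoter motifs, and the difference of the age changes with only the groups compared, were not run.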
